A study of Rattus norvegicus with 138 samples.

Results

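The serum of rats carrying tungsten (W) pellets was set against the serum of rats carrying depleted uranium (DU) pellets, with tantalum (Ta) as the surgical control. The comparison held 15 W and 16 DU libraries, 31 of the 138 in the series, each chosen by the metal and month in its label. In the study, male Sprague-Dawley rats, an outbred laboratory stock, received 2 cylindrical metal pellets in each gastrocnemius (calf) muscle, 4 per rat, at 3 months of age. Small RNA from serum was sequenced 1, 3, 6 and 12 months (mo) later. Every group, the Ta control included, underwent the same surgery and carried metal for the same time. W had 4, 4, 3 and 4 libraries at 1, 3, 6 and 12 mo, DU had 4 at each of these months, and Ta had 4, 4, 3 and 4. By the series text each rat gave serum at all 4 months, so libraries of different months may come from the same rats. The labels do not tie a library to a rat or say that equal replicate numbers are 1 animal. The libraries were therefore treated as independent in the fits over months, and the p-values measure the spread between these libraries, which may be technical. Serum has no cells of its own, so a level here is a share of the small RNA recovered from the blood's fluid part. A change in the release of a miRNA cannot be told apart from a change in that of all the others.

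miRNAs are short RNAs that pair through their seed, bases 2 to 8 from the 5′ end, with messenger RNAs and lower their output. Blood cells, platelets, liver, muscle and endothelium release them in vesicles and protein complexes, which makes serum miRNAs candidates for reporting tissue injury. Tungsten and depleted uranium are both dense metals of armour-piercing munitions. Uranium is known as a kidney toxicant and a weak alpha emitter, and tungsten is known to dissolve from implanted pellets into body fluids.

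The mature sequences of the miRNAs on which the differences between W and DU turned are given with the seed in capitals, as held by RefSeq for the rat build GRCr8. The first set is the 4 miRNAs called in the average over the months with and without the smallest libraries (miR-191a-5p, miR-503-5p, miR-34b-3p and miR-142-3p). Beside them stand miR-542-3p and miR-450b-3p, called neighbours of miR-503-5p, and miR-34c-3p, which was not called and is shown for its seed. miR-191a-5p lies at chr8:118142641-118142663 on the + strand. miR-503-5p (chrX:137725899-137725921), miR-542-3p (chrX:137722185-137722206) and miR-450b-3p (chrX:137721084-137721104) lie near each other on the - strand of the X chromosome. miR-34b-3p (chr8:60306621-60306642) and its neighbour miR-34c-3p (chr8:60306101-60306122) are on the - strand and share the seed AUCACUA. miR-142-3p is at chr10:73055155-73055177 on the + strand.
miR-191a-5p: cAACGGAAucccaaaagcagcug
miR-503-5p: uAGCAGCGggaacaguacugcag
miR-542-3p: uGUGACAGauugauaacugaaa
miR-450b-3p: aUUGGGGAcgcuucgcauuca
miR-34b-3p: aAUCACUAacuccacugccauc
miR-34c-3p: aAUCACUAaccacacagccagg
miR-142-3p: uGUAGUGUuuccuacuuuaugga

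The second set is the miRNAs that differed at 12 mo. miR-30a-5p (chr9:33233946-33233967, + strand) and miR-30e-5p (chr5:139637504-139637525, - strand) share the seed GUAAACA. miR-199a-3p is at chr13:77116294-77116315 on the + strand, miR-423-5p at chr10:62412317-62412340 on the - strand and miR-223-3p at chrX:65151450-65151470 on the + strand. miR-30d-5p and miR-378b belong to this set by their values and are named without a sequence.
miR-30a-5p: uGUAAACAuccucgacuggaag
miR-30e-5p: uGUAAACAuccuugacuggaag
miR-199a-3p: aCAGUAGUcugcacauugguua
miR-423-5p: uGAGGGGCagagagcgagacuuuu
miR-223-3p: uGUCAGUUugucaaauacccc

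The deposited table held counts for 471 miRNAs. W libraries had 3789 to 2401492 counts (median 1269637), DU libraries 518 to 6406599 (median 1220326.5) and Ta libraries 1645 to 2195682. At least 1 count was seen for 37 to 246 miRNAs in W, 22 to 236 in DU and 36 to 230 in Ta. Of the 6 libraries in the series with under 20000 counts, 2 were in this comparison: W replicate 3 at 12 mo, with 3789 counts, and DU replicate 4 at 3 mo, with 518. The control had 1 more, Ta replicate 3 at 3 mo, with 1645 counts. The calls are therefore given with all libraries and again without those under 20000 counts. The number of miRNAs detected was furthest apart at 6 mo, with means of 202.33 in W and 124.25 in DU (exact permutation test, 2-sided, p = 0.114, where the smallest possible p is 0.0571). Averaged over the months it was 8.77 higher in W (100000 permutations within months, 2-sided, p = 0.633), and 10.6 higher without the libraries under 20000 counts (p = 0.458). The table held no value of 1 and its smallest value above 0 was 2. Levels are given as CPM, the counts set to a common library total that was scaled by the trimmed mean of M-values (TMM), so that an abundant miRNA can exceed its share of the raw counts.

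**Figure D1:**
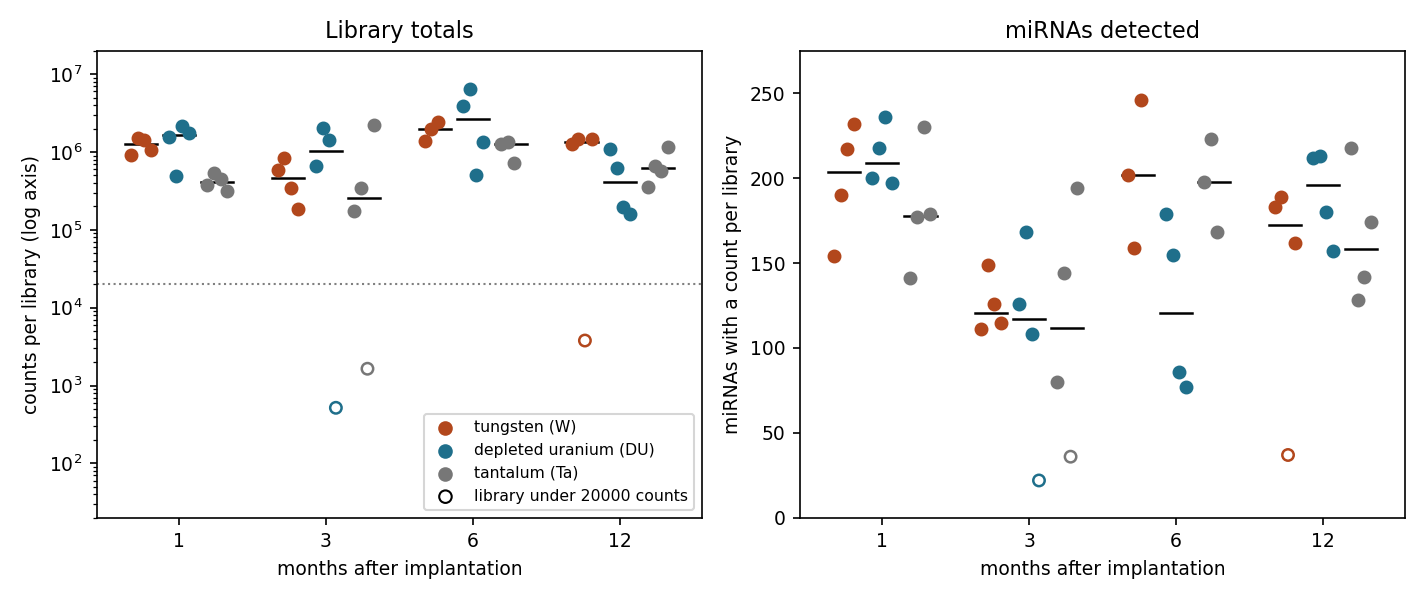
Counts per library (left, log axis) and miRNAs with a count per library (right) by months after implantation for W, DU and Ta, 1 point per library; the dotted line marks 20000 counts. The W library with 3789 counts at 12 mo and the DU library with 518 at 3 mo lie below the line.

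In the average over the 4 months, 11 of 320 miRNAs tested differed between W and DU at an adjusted p under 0.05, which is 3.44% of those tested (edgeR quasi-likelihood test, Benjamini-Hochberg adjustment over all miRNAs). Of the 11, 5 were higher and 6 were lower in W. Without the libraries under 20000 counts, 4 of 326 differed (1.23%), and all 4 were among the 11. They were miR-503-5p and miR-34b-3p, higher in W, and miR-191a-5p and miR-142-3p, lower in W. With the size factors of another scaling method (relative log expression, RLE), where the median log2 difference of all miRNAs tested was 0.37 in place of 0.04, 17 were called, 11 higher and 6 lower in W. DESeq2 called 54, 32 higher and 22 lower in W.

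miR-191a-5p, a widely expressed miRNA that is abundant in blood, took a smaller share of the counts in W than in DU serum. At 1 mo it made up 14.98%, 9.21%, 30.98% and 21.03% of the counts in the W libraries, against 46.29%, 11.42%, 55.86% and 35.33% in DU. At 3 mo it made up 5.10%, 4.36%, 4.97% and 7.52% in W, against 8.82%, 29.94%, 6.05% and, in the library with 518 counts, 0.965% in DU. W and DU ranges overlapped in both months, and at 3 mo 1 DU library stood far above the rest.

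At 6 mo miR-191a-5p made up 5.85%, 27.46% and 10.66% of the counts in W, against 24.34%, 49.77%, 4.39% and 3.24% in DU. At 12 mo the values were 11.02%, 10.10%, 0.449% in the library with 3789 counts, and 3.67% in W, against 35.92%, 40.10%, 3.71% and 9.41% in DU. W and DU ranges overlapped at both months. At 6 mo 2 DU libraries were below all W libraries and 1 was above them, and at 12 mo 2 DU libraries were above all W libraries. Over the 4 months, without the libraries under 20000 counts, the share was 11.92% ± 8.71 (SD, n = 14) in W, 24.31% ± 18.69 (SD, n = 15) in DU and 15.33% ± 13.85 (SD, n = 14) in Ta.

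The fitted difference of miR-191a-5p averaged over months was -1.84 on the log2 scale (SE 0.44, edgeR adjusted p = 0.0074), and -1.86 without the libraries under 20000 counts (SE 0.44, adjusted p = 0.0084). It lost the call when DU replicate 2 at 3 mo, the library at 29.94%, was left out (log2 -1.40, adjusted p = 0.0574), and in none of the other 30 such fits. Against Ta, the DU average was 1.55 higher on the log2 scale (adjusted p = 0.0307). W differed from Ta by -0.30 (adjusted p = 1). Both contrasts with Ta use the same Ta libraries.

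**Figure D2:**
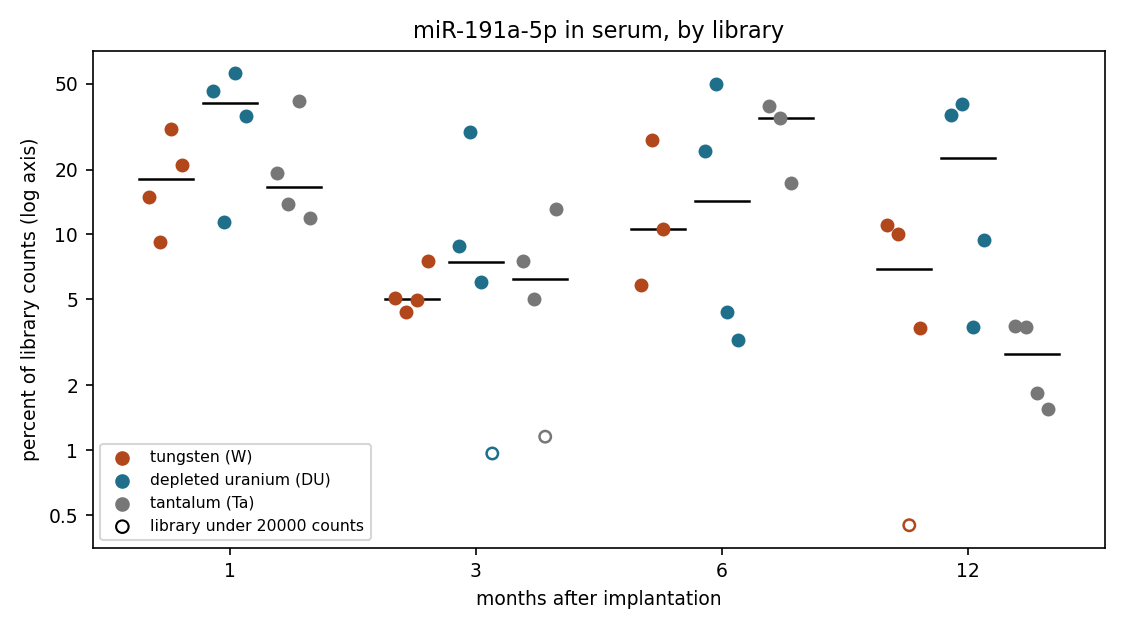
miR-191a-5p as a percent of library counts (log axis) by months after implantation, 1 point per library, for W, DU and Ta. The highest DU library reached 55.86% at 1 mo and the highest W library 30.98%, while the lowest values, 0.449% in W and 0.965% in DU, came from the libraries with 3789 and 518 counts.

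miR-503-5p was found in 10 of 15 W libraries, 6 of 16 DU libraries and 11 of 15 Ta libraries. It belongs to the X-linked cluster of miR-322 and is known from cell culture as a brake on the cell cycle. The seed of miR-503-5p, AGCAGCG, resembles the AGCAGCA that miR-322-5p and miR-16-5p share. At 3 mo its levels were 0, 740, 825 and 0 CPM in W, against 0 in all 4 DU libraries. At 6 mo they were 100, 0 and 295 CPM in W, and again 0 in all 4 DU libraries. W libraries thus had counts in 4 of 7 cases at these months, and DU libraries in 0 of 8. With a floor of 3 counts over the DU group, the W mean was at least 607-fold higher at 3 mo and at least 408-fold higher at 6 mo. These bounds, like those below, cover counting error only. They leave out the spread between libraries, where W values of 0 stood beside 740 and 825 CPM. DU replicates 3 and 4 at 6 mo had counts for 86 and 77 miRNAs, at totals of 507140 and 1361752. W libraries at 6 mo had counts for 159 to 246 miRNAs. The part of this low detection in the DU values of 0 at 6 mo, here and below, was not tested.

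At the other months W and DU overlapped for miR-503-5p. At 1 mo the levels were 265, 471, 498 and 177 CPM in W, against 620, 217, 227 and 289 in DU. At 12 mo they were 74.7, 181, 0 in the low library and 0 CPM in W, against 341, 67.5, 0 and 0 in DU. Averaged over months, the call for miR-503-5p had an adjusted p of 0.0042 (0.0060 without libraries under 20000 counts), and it held in all 31 fits that left out 1 library, where the adjusted p was at most 0.0255. Ta serum had 142, 343 and 518 CPM at 6 mo and 1412, 0, 0 and 517 CPM at 3 mo. DU was below Ta in the average (adjusted p = 0.0011) and W did not pass the test against Ta (adjusted p = 1).

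The called neighbours of miR-503-5p on the X chromosome differed in direction. miR-450b-3p was found in 6 W, 4 DU and 2 Ta libraries and was higher in W (adjusted p = 0.0389, and 0.0822 without libraries under 20000 counts). Its W values at 3 mo were 0, 0, 0 and 1296 CPM, against 0 in the 4 DU libraries, so 1 library carried the difference there. Without that library neither metal had a count at 3 mo, so the average was not determined and the call could not be kept. The call was also lost without W replicate 3 at 6 mo (112 CPM) or W replicate 4 at 12 mo (171 CPM). In those fits the log2 differences of 3.35 and 3.21 were far from passing the test. They do not show that a difference remained. Other fits lost the call more narrowly, also where the library left out had no count. For example, without DU replicate 1, 2 or 3 at 3 mo the adjusted p was 0.0778, 0.0642 and 0.0701.

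miR-542-3p was found in 3 W, 7 DU and 2 Ta libraries and was lower in W (adjusted p = 0.0428, and 0.0822 without libraries under 20000 counts). At 3 mo it was 0 in the 4 W libraries, against 1009, 0, 0 and 0 CPM in DU. Without that DU library neither metal had a count at 3 mo, so the average was not determined and the call could not be kept. The call was also lost without DU replicate 1 at 6 mo (167 CPM). In that fit the log2 difference of -3.17 was far from passing the test and does not show that a difference remained. Other fits lost the call more narrowly. For example, without any 1 of the 4 W libraries at 3 mo the adjusted p was 0.0527 to 0.0751. Without any 1 of the 4 W libraries at 12 mo it was 0.0533 to 0.0977. Of 10 arms listed for the miR-322 and miR-503 cluster, which left out miR-450b-3p, all were tested in the average, with 1 called higher (miR-503-5p) and 1 lower (miR-542-3p) in W, beside 3.44% of all miRNAs tested. Without the libraries under 20000 counts 1 of the 10 was called, beside 1.23% of all miRNAs tested.

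The miR-34b/34c pair is encoded by a shared transcript that p53, which responds to DNA damage, switches on. miR-34b-3p had counts in 1 W library at each month, at 11.8, 46.2, 17.3 and 21.2 CPM, in 0 of 16 DU libraries, and in 2 of 15 Ta libraries. Over all libraries the W mean was at least 41.2-fold above the floor of 3 counts over the DU libraries. Its adjusted p was 0.0227 (0.0497 without libraries under 20000 counts). The result rested on single libraries: without any 1 of those 4 W libraries, neither metal had a count at that month. The average was then not determined, so such a fit could not keep the call. Without DU replicate 2 at 3 mo the adjusted p was 0.052, and DESeq2 gave 1.

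miR-34c-3p, with the same seed, had counts in 5 of 15 W, 0 of 16 DU and 3 of 15 Ta libraries, and as neither metal had a count of it at 3 mo, its average was not determined in the edgeR fit (adjusted p = 1, and 0.0007 by DESeq2). At 1 mo its levels were 0, 24.4, 49.0 and 4.78 CPM in W, against 0 in the 4 DU libraries. The other arm, miR-34c-5p, went the other way in number, with counts in 5 W, 8 DU and 1 Ta libraries once those under 20000 counts were left out, and did not pass the test (adjusted p = 0.374). Of 8 miRNAs listed as p53 targets, 6 were in the table, and 1 of these 6, miR-34b-3p, was called, beside 3.44% of all miRNAs tested. miR-34a-5p, the best known p53 target of the family, had counts in 2 of 14 W, 1 of 15 DU and 3 of 14 Ta libraries.

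miR-142-3p, a marker of blood cell lineages, was the reverse case: it had counts in 0 of 15 W libraries, 5 of 16 DU libraries and 0 of 15 Ta libraries. In DU its levels were 6.14 CPM in 1 library at 1 mo, 202 and 72.5 CPM in a pair at 3 mo, 0.63 CPM at 6 mo and 31.2 CPM at 12 mo. W was at least 128-fold lower than the DU mean by counting error alone, although most DU libraries also had no count (adjusted p = 0.0227, and 0.0497 without libraries under 20000 counts). Leaving out the DU library with counts at 1, 6 or 12 mo left neither metal with a count at that month. The average was then not determined, so such a fit could not keep the call. Leaving out any of the 3 W libraries at 6 mo took the adjusted p to between 0.0666 and 0.0727, and DESeq2 gave an adjusted p of 1. DU was also above Ta (adjusted p = 0.0343). Of the other 3 listed myeloid arms, 0 were called, beside 3.44% of all miRNAs tested.

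**Figure D3:**
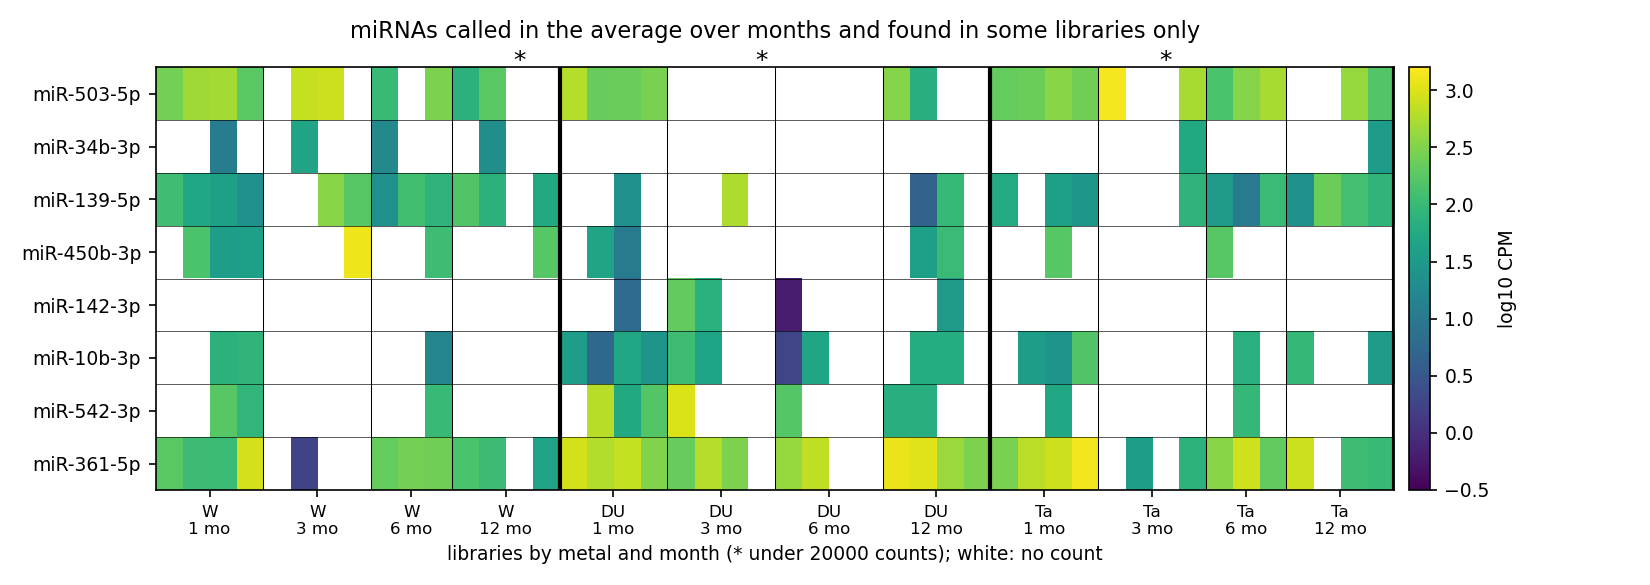
Levels (log10 CPM, white for no count) of miRNAs called in the average over months and found in some libraries only, with 1 column per library, ordered by metal and month; a star marks a library under 20000 counts. miR-503-5p is white in all 8 DU libraries at 3 and 6 mo, miR-34b-3p in all 16 DU libraries and miR-142-3p in all 15 W libraries.

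The remaining 5 calls of the average did not hold without the libraries under 20000 counts. miR-139-5p, described as a tumour suppressor, was found in 12 W, 4 DU and 11 Ta libraries. At 6 mo it had 22.4, 119 and 80.2 CPM in W, against 0 in the 4 DU libraries, so that W was at least 228-fold higher. At 1 mo it had 115, 53.1, 40.5 and 22.7 CPM in W, against 0, 0, 23.2 and 0 in DU. At 1 mo the groups overlapped through the 1 DU library with counts. Its adjusted p in the average was 0.0392 (0.0903 without libraries under 20000 counts), and the call held in 6 of 31 fits that left out 1 library.

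miR-361-5p, known to act on the growth factor VEGFA, was found in 11 W and 13 DU libraries, with medians of 108 CPM in W, 432 in DU and 202 in Ta. At 3 mo it had 0, 1.81, 0 and 0 CPM in W, against 221, 612, 293 and, in the library with 518 counts, 0 in DU. At 12 mo it had 142, 108, 0 and 42.8 CPM in W, against 1251, 1059, 442 and 294 in DU. The groups did not overlap at 12 mo, and at 3 mo they did so through the low DU library alone. The average difference was -3.28 on the log2 scale (SE 0.98, adjusted p = 0.0392, and 0.0822 without libraries under 20000 counts), and the call held in 13 of 31 fits.

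miR-10b-3p, the lesser arm of a precursor in the HoxD gene cluster, was found in 3 W, 10 DU and 6 Ta libraries. At 1 mo it had 0, 0, 76.6 and 82.4 CPM in W, against 36.7, 5.70, 51.9 and 25.7 in DU. At 3 mo and 12 mo no W library had a count, and 2 of 4 DU libraries did at each of these months. Its adjusted p was 0.0389 (0.0552 without libraries under 20000 counts). The call was lost in 10 of 31 fits that left out 1 library, with an adjusted p of up to 0.108, reached without DU replicate 2 at 6 mo.

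miR-185-5p and miR-30d-5p were called through 1 library each. miR-185-5p had 342, 476, 206 and 321 CPM at 3 mo in W, against 1035, 553, 486 and 113264 in DU, where the last value was 111 of the 518 counts of that library. The average difference was -2.07 on the log2 scale with all libraries (adjusted p = 0.0229) and -0.74 without those under 20000 counts (adjusted p = 0.821), and the call held in 24 of 31 fits that left out 1 library. For miR-30d-5p the average was 1.24 with all libraries (adjusted p = 0.0389) and 0.49 without those under 20000 counts (adjusted p = 0.457), and the call held in 18 of 31 such fits.

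miR-181b-5p, which is abundant in lymphocytes, came just short of the threshold in the average (log2 2.56, SE 0.88, adjusted p = 0.0922, and 0.107 without libraries under 20000 counts). At 3 mo it had 0, 321, 292 and 1718 CPM in W, against 0, 3.92, 1.75 and 0 in DU. miR-139-3p, from the same precursor as miR-139-5p, miR-10a-3p, miR-3068-3p and miR-378b had adjusted p values between 0.0869 and 0.0922.

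Taken month by month, 0 of 270 miRNAs were called at 1 mo (0%), 0 of 167 at 3 mo (0%) and 0 of 272 at 6 mo (0%), with 28, 20 and 32 at an unadjusted p under 0.05. The counts of calls were also 0% in these months without libraries under 20000 counts, where 34, 17 and 32 were at an unadjusted p under 0.05. DESeq2 called 3, 6 and 17 miRNAs at these months. At 6 mo all 17 were higher in W.

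At 1 mo, miR-375-3p, a miRNA of pancreatic islets and other endocrine cells, was among the miRNAs with the smallest p. It had 1197, 1302, 532 and 672 CPM in W, against 396, 259, 158 and 226 in DU and 384, 292, 420 and 1123 in Ta. The W and DU groups did not overlap (log2 1.87, SE 0.65, adjusted p = 0.45). miR-148b-5p had 0 CPM in the 4 W libraries, against 19.7, 8.55, 13 and 6.64 in DU and 0, 0, 0 and 11.5 in Ta (adjusted p = 0.45). The other miRNAs with the smallest p at 1 mo were miR-31a-5p, miR-34c-3p and miR-124-3p, seen in W and not in DU, and miR-340-3p, miR-1306-3p and miR-429, seen in DU and not in W. Each was seen in 2 or 3 libraries of its group.

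At 3 mo, the smallest p values besides miR-503-5p, miR-450b-3p and miR-185-5p belonged to miRNAs seen in 1 or 2 libraries of a group. miR-144-5p, made in red cell precursors, had 0 CPM in the 4 W libraries, against 301, 58.1, 0 and 0 in DU. miR-872-3p likewise had 0 CPM in W, against 0, 64.0, 263 and 0 in DU. miR-664-3p and miR-125b-1-3p were seen in W and not in DU, and miR-28-5p in DU and not in W.

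At 6 mo, miR-99a-5p, a regulator of the growth kinase mTOR, had 12361, 15371 and 18734 CPM in W, against 43803, 42082, 15729 and 41280 in DU and 14195, 10488 and 8067 in Ta. In 3 of 4 DU libraries it was above every W library (adjusted p = 0.516). let-7a-1-3p and let-7c-2-3p, whose rows in the table are identical, had 56.1, 0 and 48.3 CPM in W, against 0 in the 4 DU libraries. miR-22-5p, miR-26b-3p and miR-3074 had counts in 1 DU library each and in 0 W libraries.

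At 12 mo, 6 of 224 miRNAs were called (2.68%), 4 higher and 2 lower in W, and 42 were at an unadjusted p under 0.05. Without the W library with 3789 counts, 3 of 242 were called (1.24%), 2 higher and 1 lower in W, and 2 of these 3 were among the 6. They were miR-30d-5p and miR-378b. The third was miR-223-3p. In that fit every W library (1269637 to 1490019 counts) was deeper than every DU library (159861 to 1078901 counts). Metal and library depth thus went together, and the part of depth was not tested. With 1 adjustment for the tests of the 4 months together, 5 of the 6 stayed called and miR-423-5p did not. The balance of the calls depended on the method: DESeq2 called 19, 5 higher and 14 lower in W, with 2 of the 6 among them. With no filter on low counts 17 were called, 6 higher and 11 lower in W, and a fit of the W and DU libraries alone called 0, with 25 at an unadjusted p under 0.05.

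The miR-30 family, whose members share a seed and are abundant in kidney, led the 12 mo calls. miR-30d-5p had 7634, 6966, 234715 and 7328 CPM in W, against 1907, 2426, 2638 and 2416 in DU and 3713, 4037, 5402 and 5696 in Ta. All W libraries were above all DU libraries, and the value of 234715 CPM was 825 of the 3789 counts of the low library. The difference was 4.34 on the log2 scale (SE 0.74, adjusted p = 0.000203), and 1.61 without that library (SE 0.40, adjusted p = 0.0409). The call held in all 8 fits that left out 1 library, and it was lost when only W and DU libraries were fitted (adjusted p = 0.0608). The Ta libraries lay between those of DU and W. W against Ta had adjusted p = 0.333 without the low library, and DU against Ta 0.322 with all libraries.

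miR-30e-5p had 937, 1070, 71410 and 1737 CPM in W, against 312, 335, 692 and 374 in DU (log2 4.96, SE 0.97, adjusted p = 0.000992). Without the low library the difference was 1.5 (SE 0.61, adjusted p = 0.171). miR-30a-5p had 2872, 3259, 127742 and 3624 CPM in W, against 973, 1461, 1863 and 2195 in DU (log2 3.94, SE 0.81, adjusted p = 0.00153). Without the low library it was 0.95 (SE 0.50, adjusted p = 0.264). For both the 3 other W libraries lay above the 4 DU libraries, but the difference did not pass the test. The Ta libraries of miR-30a-5p, at 6936, 2875, 3082 and 2615 CPM, overlapped with W.

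miR-30c-5p, the fourth member tested, had 3849, 1401, 0 and 5571 CPM in W, against 1395, 989, 583 and 705 in DU (log2 1.79, adjusted p = 0.211). The 4 members were all higher in W at 12 mo, and 3 of them were called, beside 2.68% of all miRNAs tested. Their median was 4.14 on the log2 scale beside -0.11 for all miRNAs tested. Without the low library 1 was called, beside 1.24% of all miRNAs tested, and the median was 1.55. At 1, 3 and 6 mo their medians were -0.22, 0.30 and 0.04, and 0 were called, beside 0% of all miRNAs tested.

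miR-199a-3p, abundant in fibroblasts, had 1816, 1005, 42676 and 2145 CPM in W at 12 mo, against 483, 682, 879 and 1608 in DU. It was called with all libraries (log2 3.25, SE 0.79, adjusted p = 0.0106) and not without the low one (log2 0.73, SE 0.59, adjusted p = 0.603). In the Ta library with 1645 counts at 3 mo, miR-199a-3p also reached 110006 CPM.

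miR-423-5p, studied as a plasma marker of heart failure, was lower in W at 12 mo. It had 1493, 2123, 1423 and 1281 CPM in W, against 9117, 8986, 6432 and 10353 in DU and 2980, 535, 1131 and 2402 in Ta. The lowest DU library was above the highest W and Ta libraries. The 1423 CPM of the low W library rested on 5 counts. The difference was -2.30 on the log2 scale (SE 0.64, adjusted p = 0.0372) and -2.40 without that library (SE 0.69, adjusted p = 0.0676). In the 8 fits that left out 1 library the difference was -2.55 to -2.07 on the log2 scale, and the call held in 2 of them, with adjusted p values of 0.031 to 0.110.

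miR-378b was seen in DU alone at 12 mo, with 0 CPM in the 4 W libraries, against 0, 140, 31.2 and 470 in DU and 0 in the 4 Ta libraries. Those DU levels rested on 58, 6 and 64 counts. W was at least 283-fold lower than the DU mean (adjusted p = 0.0106, and 0.0409 without the low W library), and the call held in all 8 fits that left out 1 library. In the fit of W and DU alone it did not pass the filter on low counts and was not tested. DU against Ta had adjusted p = 0.0377. In the earlier months W had counts in 3 libraries, at 3.45 to 6.35 CPM, and at 1 mo all 4 Ta libraries had counts, at 7.72 to 51.8 CPM.

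miR-223-3p, the best known miRNA of neutrophils, was higher in W at 12 mo once the low W library, which had no count of it, was left out. It had 1906, 1564, 0 and 1044 CPM in W, against 310, 205, 307 and 44.1 in DU and 273, 1281, 1252 and 225 in Ta. Each of the 3 deeper W libraries was above every DU library. The difference was 2.84 on the log2 scale without the low library (SE 0.75, adjusted p = 0.0474) and 2.70 with it (SE 0.84, adjusted p = 0.0627). At the other months W and DU overlapped, and the average over months did not pass the test (log2 1.08).

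miR-192-5p, abundant in liver, gut and kidney and also a p53 target, came next to the threshold. It had 18590, 33573, 1423 and 24341 CPM in W, against 64202, 131171, 38946 and 251741 in DU and 37784 to 53260 in Ta. The DU libraries were all above the W libraries (log2 -2.39, SE 0.70, adjusted p = 0.0508, and 0.0623 without the low library). miR-10b-5p had 19407, 14204, 50642 and 42845 CPM in W, against 367277, 87465, 137051 and 19846 in DU (log2 -2.22, SE 0.74, adjusted p = 0.0976, and 0.0749 without the low library).

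**Figure D4:**
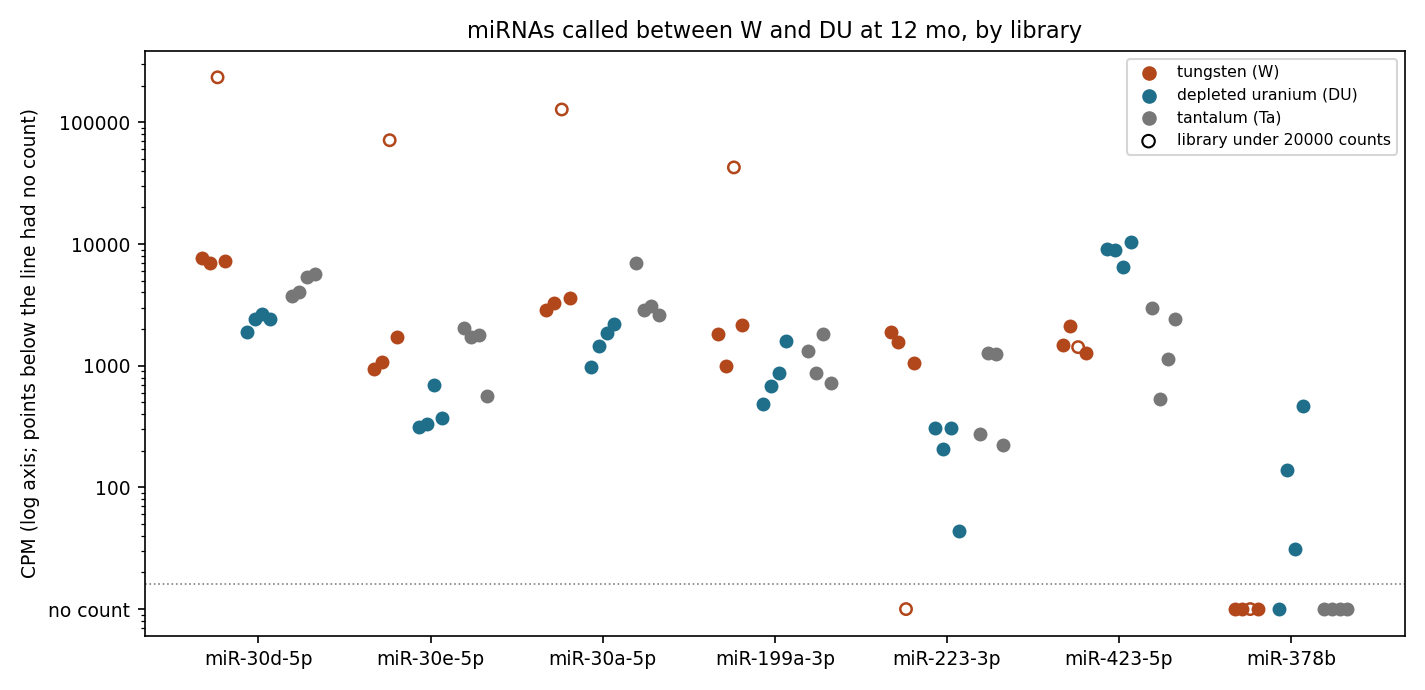
Levels at 12 mo (CPM, log axis, points under the dotted line for no count) of the miRNAs called between W and DU at 12 mo with all libraries or without the low one, 1 point per library for W, DU and Ta. miR-30d-5p spans 6966 to 234715 CPM in W and 1907 to 2638 in DU, and miR-423-5p spans 1281 to 2123 CPM in W and 6432 to 10353 in DU.

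A test of whether the difference between W and DU changed over the months called 6 of 320 miRNAs (1.88%), with 67 at an unadjusted p under 0.05, and 0 of 326 (0%) without the libraries under 20000 counts, with 53 at an unadjusted p under 0.05. The 6 were miR-30d-5p (adjusted p = 0.00498), miR-30e-5p (0.00767), miR-503-5p (0.0149), miR-144-5p (0.0193), miR-30a-5p (0.0261) and miR-185-5p (0.0406). For the 3 miR-30 members the 12 mo difference stood apart, and leaving out the W library with 3789 counts took the adjusted p to between 0.614 and 0.907. For miR-185-5p it was the 3 mo difference, with an adjusted p of 1 without the DU library with 518 counts. The miR-185-5p call was lost in other fits too, such as without any 1 of the 4 W libraries at 3 mo (0.0854 to 0.145). That of miR-30a-5p was also lost without any 1 of the 4 DU libraries at 12 mo (0.0643 to 0.0940). miR-503-5p had counts in W and none in DU at 3 and 6 mo, and overlapping values at 1 and 12 mo. It kept an adjusted p of at most 0.0401 in every fit that left out 1 library, but had 0.0616 without all low libraries of the series. miR-144-5p was seen in W and not in DU at 6 mo (0, 96.8 and 7.76 CPM in W), and in DU and not in W at 3 and 12 mo. Without W replicate 2 at 6 mo its adjusted p was 0.0676.

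The let-7 family, which keeps cells in a differentiated state, was higher in W at 12 mo in all 9 members. Of these 0 were called, beside 2.68% of all miRNAs tested. Their differences ran from 0.54 for let-7b-5p to 1.77 for miR-98-5p on the log2 scale, with a median of 1.37 beside -0.11 for all miRNAs tested, and the smallest adjusted p was 0.136. let-7a-5p had 32416, 30232, 52918 and 36432 CPM in W, against 21339, 8576, 21409 and 1880 in DU and 30618, 39787, 27894 and 41445 in Ta. The W libraries were all above the DU libraries and overlapped with Ta. The 9 members stayed higher in W without the low library (median 1.35) and with RLE size factors (median 1.22). In the average over months 8 of 9 were higher in W, with a median of 0.50 beside 0.04 (0.57 without libraries under 20000 counts). Of the 9, 0 were called, beside 3.44% of all miRNAs tested.

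**Figure D5:**
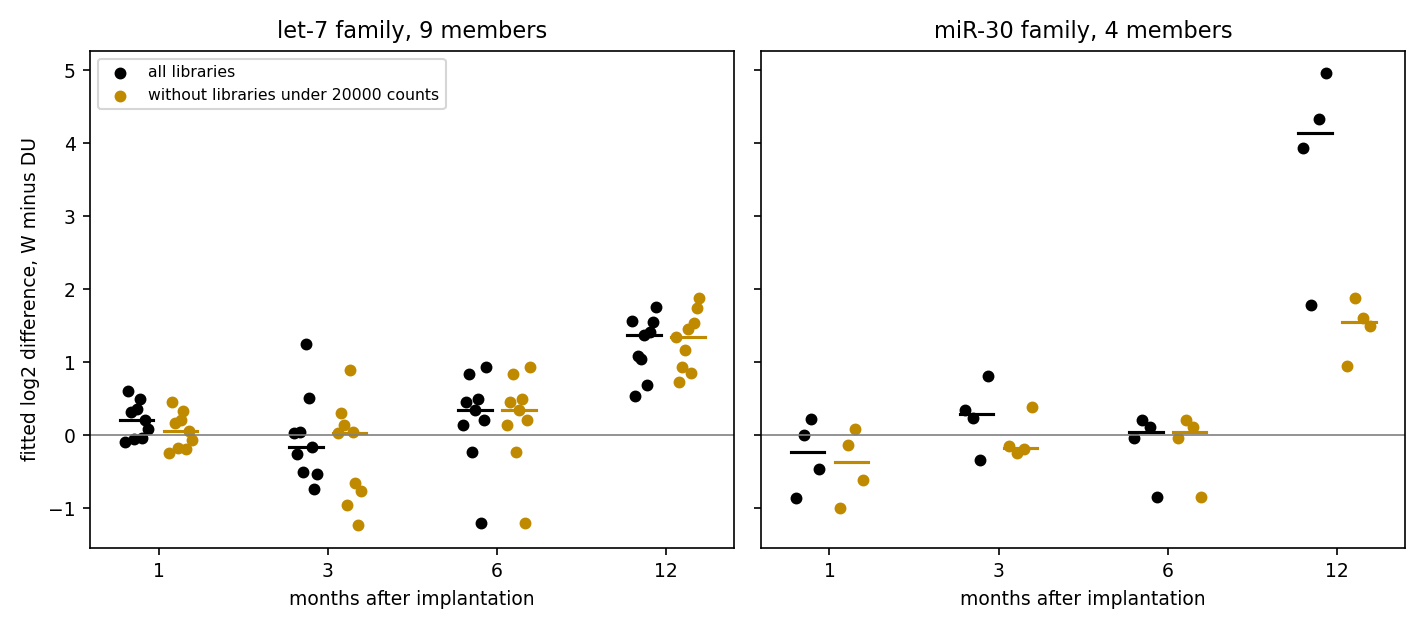
Fitted log2 difference, W minus DU, of each tested member of the let-7 and miR-30 families by months after implantation, with all libraries and without those under 20000 counts. The let-7 members lie between 0.54 and 1.77 at 12 mo with all libraries, while the median of the miR-30 members at 12 mo is 4.14 with all libraries and 1.55 without the low one.

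Muscle, the tissue that held the pellets, gave a small part of the counts in each serum. The 8 listed muscle miRNAs together made up 0% to 2.37% of the counts in W (median 0.0833%), 0% to 1.35% in DU (median 0.0484%) and 0% to 2.27% in Ta (median 0.102%). miR-208b-3p was at 0 in all 3 metals, and miR-133b-3p was at 0 in DU. In the average over months 0 of 7 tested were called, beside 3.44% of all miRNAs tested. At that share 0 calls is the usual outcome for a list this short, so it says little about the list, here and below. Several had no count in either metal at some month, which leaves their fitted average undetermined. Such members could not be called, and no direction or median is given for such lists, here or below. miR-1-3p, the main muscle miRNA, had medians of 134 CPM in W, 198 in DU and 168 in Ta without the libraries under 20000 counts, with single libraries up to 8391 in W, 4394 in DU and 16713 in Ta. In the same libraries miR-206-3p, made in regenerating muscle, had medians of 814 CPM in W, 357 in DU and 847 in Ta. miR-133a-3p, also of muscle, had counts in 6 of 14 W, 7 of 15 DU and 5 of 14 Ta libraries.

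No liver or red cell miRNA passed the test in the average. miR-122-5p, made almost only in liver, had medians of 41306 CPM in W, 36251 in DU and 55252 in Ta without the libraries under 20000 counts. Of the 4 listed liver miRNAs tested 0 were called in the average, beside 3.44% of all miRNAs tested. Their median was 0.30 on the log2 scale (0.37 without libraries under 20000 counts), beside 0.04 for all miRNAs tested. miR-451-5p, the most abundant miRNA of red cells and a measure of their breakage, had medians of 2546 CPM in W, 1192 in DU and 3027 in Ta, and miR-16-5p, also of red cells, had 940 in W, 1079 in DU and 995 in Ta. Of the 9 red cell miRNAs tested 0 were called, beside 3.44% of all miRNAs tested. Their summed share ran from 0.317% to 4.04% in W (median 2.18%), 0% to 9.26% in DU (median 1.04%) and 0.356% to 37.8% in Ta (median 2.55%). Its part in the results above was not tested.

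Of the 9 kidney miRNAs tested, a group of note because uranium is filtered by the kidney, 0 were called in the average. The share over all miRNAs tested was 3.44%. At 12 mo 1 of 8 was called, miR-30a-5p, beside 2.68% of all miRNAs tested, and 0 without the low W library (adjusted p = 0.264). miR-10a-5p, one of the most abundant miRNAs in these sera, had medians of 96696 CPM in W, 159235 in DU and 106642 in Ta, with overlapping ranges. Of the 8 inflammation miRNAs 0 were called in the average, beside the same 3.44%. miR-21-5p, raised in many injured tissues, had medians of 2903 CPM in W, 2622 in DU and 2675 in Ta (log2 0.70). With RLE size factors its difference was 1.49 (adjusted p = 0.021). miR-146a-5p, a brake on innate immune signalling, had medians of 2520 CPM in W, 5975 in DU and 3365 in Ta, and its average of -0.29 turned positive with RLE size factors. Without the libraries under 20000 counts miR-155-5p, a promoter of inflammation, had counts in 9 of 14 W, 5 of 15 DU and 7 of 14 Ta libraries.

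The other lists gave few calls in any month. Of the 9 fibrosis miRNAs 0 were called in the average and 1 at 12 mo, miR-199a-3p, beside 2.68% of all miRNAs tested. That call was lost without the low W library (adjusted p = 0.603). Of the 6 platelet and endothelium miRNAs 0 were called in the average (median -0.04 on the log2 scale, and -0.06 without libraries under 20000 counts) and 1 at 12 mo, miR-423-5p, which was also lost without the low W library (adjusted p = 0.0676). The 5 lymphocyte, 12 miR-17-92 cluster, 11 epithelium, 10 Dlk1-Dio3 cluster, 4 hypoxia and 6 neuron miRNAs tested in the average had 0 calls each. The share over all miRNAs tested in the average was 3.44%. Of the neuron list miR-9a-5p, miR-9a-3p and miR-138-5p were at 0 in DU.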

How the data were processed

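Total serum RNA was made into libraries with a small RNA kit and sequenced on a NextSeq 500, per the labels' protocols. The build Rnor_6.0 is named in the submitters' processing notes. For the aligner, counting tool and miRNA annotation, names and versions were not given in the sources used here. The authors deposited 1 table of raw counts per miRNA and library, with 471 miRNAs and 138 libraries in 35 groups of metal and month. No 2 columns were identical. These counts were tested with edgeR 4.0.16 in R 4.3.3: a quasi-likelihood fit with TMM scaling and filterByExpr (minimum count 10, minimum total 15), on all libraries of a month for each month, and on all 138 libraries for the average and for the change between months. Each p was adjusted by the Benjamini-Hochberg method over all miRNAs tested, and a call is an adjusted p under 0.05. The scripts were tested on simulated data. A prior count of 2 was used for log2 CPM. Where a group had no count, a fold is a lower bound from 3 counts over that group. Folds, floors and intervals cover counting error only.

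Alternatives were the libraries of at least 20000 counts, RLE size factors, no filter on low counts, DESeq2 1.42.0, a fit of W and DU alone, a replicate block, thinning to 70000 counts for detection, and leaving out 1 library at a time. The miRNAs named are the 4 with the smallest p in each direction at each month, the 8 in each direction in the average, the 6 with the smallest p for change between months, every miRNA called with all libraries or with those of at least 20000 counts, 15 known serum miRNAs given in any case, and members of 18 lists of miRNAs by tissue, family or cluster. Of the 142 names on these lists, 132 were in the table. The comparison, the named miRNAs and the lists were chosen with earlier results of these data known. RefSeq sequences (GRCr8) were found for 434 of the 471 miRNAs and 49 of the 55 named.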

Additional observations from a re-analysis of the deposited data

Results flagged for a closer look

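Samples far from the others of their group were looked for in groups of 4 libraries, for library totals, the number of miRNAs detected and the miRNAs called in any comparison. Of 119 such sets of 4 values 27 held a sample that stood apart, or 22.7%. The rule flags about 1 in 20 sets of normal values, but these sets cannot be held against that rate. A set with counts in 1 library alone stands apart by construction, and the miRNAs were those called in these data. Of the W and DU libraries under 20000 counts, W replicate 3 at 12 mo stood apart by its total of 3789 counts and by miR-30d-5p (234715 CPM), miR-30a-5p (127742 CPM), miR-30e-5p (71410 CPM) and miR-223-3p (0 CPM). DU replicate 4 at 3 mo stood apart by its total of 518 counts and by miR-185-5p (113264 CPM), miR-223-3p (0 CPM), miR-30a-5p (0 CPM) and miR-30e-5p (0 CPM).

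In W, the others were single libraries with counts among libraries with none. They were miR-34b-3p in replicate 3 at 1 mo (11.8 CPM), replicate 2 at 3 mo (46.2 CPM) and replicate 2 at 12 mo (21.2 CPM), miR-450b-3p in replicate 4 at 3 mo (1296 CPM) and replicate 4 at 12 mo (171 CPM), and miR-361-5p in replicate 2 at 3 mo (1.81 CPM).

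In DU, miR-142-3p stood apart in replicate 3 at 1 mo (6.14 CPM), replicate 1 at 6 mo (0.63 CPM) and replicate 3 at 12 mo (31.2 CPM). miR-542-3p did so in replicate 1 at 3 mo (1009 CPM) and replicate 1 at 6 mo (167 CPM), and miR-139-5p in replicate 3 at 1 mo (23.2 CPM) and replicate 3 at 3 mo (564 CPM). At 1 mo miR-144-5p stood apart in replicate 3 (14.3 CPM), miR-30a-5p in replicate 3 (1991 CPM), miR-223-3p in replicate 2 (57.0 CPM) and miR-378b in replicate 1 (1.88 CPM).

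The difference between W and DU changed between months, by a test of the change itself, for miR-30d-5p (adjusted p = 0.00498), miR-30e-5p (0.00767), miR-503-5p (0.0149), miR-144-5p (0.0193), miR-30a-5p (0.0261) and miR-185-5p (0.0406), and for 0 miRNAs without the libraries under 20000 counts.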

How the results depend on the processing

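Of the 11 calls of the average 4 remained without libraries under 20000 counts, and of the 6 at 12 mo 2 did. Counts of calls by setting were as follows. Without libraries under 20000 counts there were 3 at 12 mo, 4 in the average and 0 for change between months. With no filter on low counts there were 3, 1, 1 and 17 at 1, 3, 6 and 12 mo, and 10 for change between months. DESeq2 gave 3, 6, 17 and 19 at these months and 54 in the average. A fit of W and DU alone gave 1 at 3 mo and 0 at 12 mo, and RLE size factors gave 17 in the average. With RLE the median log2 difference of all miRNAs tested was 0.35, 0.44, 0.13 and -0.26 at 1, 3, 6 and 12 mo, beside 0, 0.24, 0.30 and -0.11 with TMM. Leaving out 1 library gave 0 to 1 at 3 mo, 3 to 13 at 12 mo, 3 to 16 in the average and 2 to 9 for change between months. In the average the fewest, 3, came without DU replicate 2 at 3 mo or W replicate 1 at 6 mo. The cause was not tested.

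For W and DU libraries of equal replicate number in a month, correlations of their deviations ran from -0.107 to 0.208 over 15 pairs, with 2 over 0.1. These values cannot show whether libraries of different months came from the same rats. With a replicate block 4 miRNAs were called in the average and 2 for change between months.

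Some differences turned in sign, none of them past the threshold, which some of the tests could not reach. Thinned to 70000 counts, W minus DU in miRNAs detected was 4.25, -5.42 and 1.5 at 1, 3 and 12 mo, and without libraries under 20000 counts it was -8.75 at 3 mo. Library totals, on the log10 scale, differed by -0.472 at 3 mo and 0.565 at 12 mo without those libraries. Leaving out 1 library gave -25.75 to 0.25 miRNAs detected at 1 mo and -8.75 to 39.9 at 3 mo, and totals of -0.177 to 0.038, -0.472 to 0.728, -0.240 to 0.128 and -0.300 to 0.565 at 1, 3, 6 and 12 mo. The average log2 difference of miR-122-5p was -0.23 with no filter and -0.22 to 0.30 leaving out 1 library. That of miR-133a-3p was -2.88 with the replicate block and -1.67 to 2.29. That of miR-146a-5p was 0.35 with RLE, 0.0274 with DESeq2 and -1.15 to 0.19. That of miR-16-5p was 0.0088 with RLE, and that of miR-34a-5p was -0.38 to 1.34. DESeq2 gave no adjusted p for 9 of 69 named results. Libraries with few counts limit every miRNA seen in some libraries only.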
